A study of Rattus norvegicus with 10 samples.

Results

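The kinesin family genes are the 46 protein-coding genes whose symbols name a kinesin motor (Kif or Kifc with a number), the kinesin-2 accessory subunit Kifap3, or a kinesin light chain (Klc1 to Klc4). The rule reads the symbol and no measured value, and was applied to 22293 protein-coding genes among 32545 genes of every kind in the files. It was set with earlier results of these data known. Messenger RNA was sequenced from round spermatids, the germ cells left haploid by meiosis, of aged rats (18 to 20 months, n = 5 libraries) and young rats (4 to 6 months, n = 5 libraries). All animals were Brown Norway rats labelled wild type, an inbred strain used in studies of male reproductive ageing, with no transgene and no drug treatment in the labels. The spermatids were enriched by sedimentation at unit gravity on an albumin gradient (STA-PUT), which separates testis cells by size. The labels do not say whether each library came from a different animal, so each p-value measures the spread between these libraries.

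Kinesins are motors that hydrolyse ATP to walk along microtubules or to take tubulin off their ends. In germ cells they build the meiotic spindle, separate chromosomes, and form the bridge at which daughter cells stay joined. In round and elongating spermatids, kinesins carry cargo along the manchette, a skirt of microtubules around the nucleus, and into the growing flagellum. The members are described by the work they are known for: the cilium and flagellum, cell division, and transport of cargo.

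The libraries held 15992576 to 18203223 fragments in the aged group and 14488222 to 17401744 in the young group, recovered from the deposited FPKM (fragments per kilobase of gene, scaled by 1 factor per library). At that depth 1 FPKM over 1 kb stood for 14.6 to 18.6 fragments. The library sizes implied by the scaling were 0.966 (young replicate 5) to 1.025 (aged replicate 2) times the recovered totals. The FPKM were therefore not scaled to those totals. All 12 round spermatid markers averaged 1 FPKM or more, and they summed to 20592 to 27002 FPKM in aged libraries and to 20501 to 32666 FPKM in young libraries. Markers of meiotic spermatocytes summed to 245 to 309.8 FPKM in aged libraries and 266 to 372 FPKM in young libraries. Spermatogonial markers summed to 45.2 to 51.4 FPKM in aged libraries and 42.1 to 61.4 FPKM in young libraries. Markers of testis somatic cells were also present, and aged replicate 2 had the largest sum of every somatic list. Peritubular markers summed to 103 to 260.2 FPKM in aged libraries, against 67.1 to 101 FPKM in young libraries, and Leydig cell markers to 10.7 to 119 FPKM in aged libraries, against 4.90 to 7.87 FPKM in young libraries. In bulk samples such as these, fewer cells of a type and less RNA per cell cannot be told apart.

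Transcripts of all 46 kinesin genes were detected in each of the 10 libraries, at levels that ran from a mean of 284 FPKM for Kif2b to 0.129 FPKM for Kif28p. Of the members, 4 averaged 100 FPKM or more over the 10 libraries, 10 lay between 20 and 100 FPKM, 12 between 5 and 20 FPKM, and 11 between 1 and 5 FPKM. The other 9 averaged under 1 FPKM and were not tested. FPKM are per gene length, so levels of different genes can be set beside each other. The 46 genes summed to 1376 to 1462 FPKM in aged libraries and to 1380 to 1518 FPKM in young libraries. Kif2b, Kif17 and Kif27 made up 44.8 to 47.5% of that sum in aged libraries and 41.5 to 47.2% in young libraries.

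**Figure D1:**
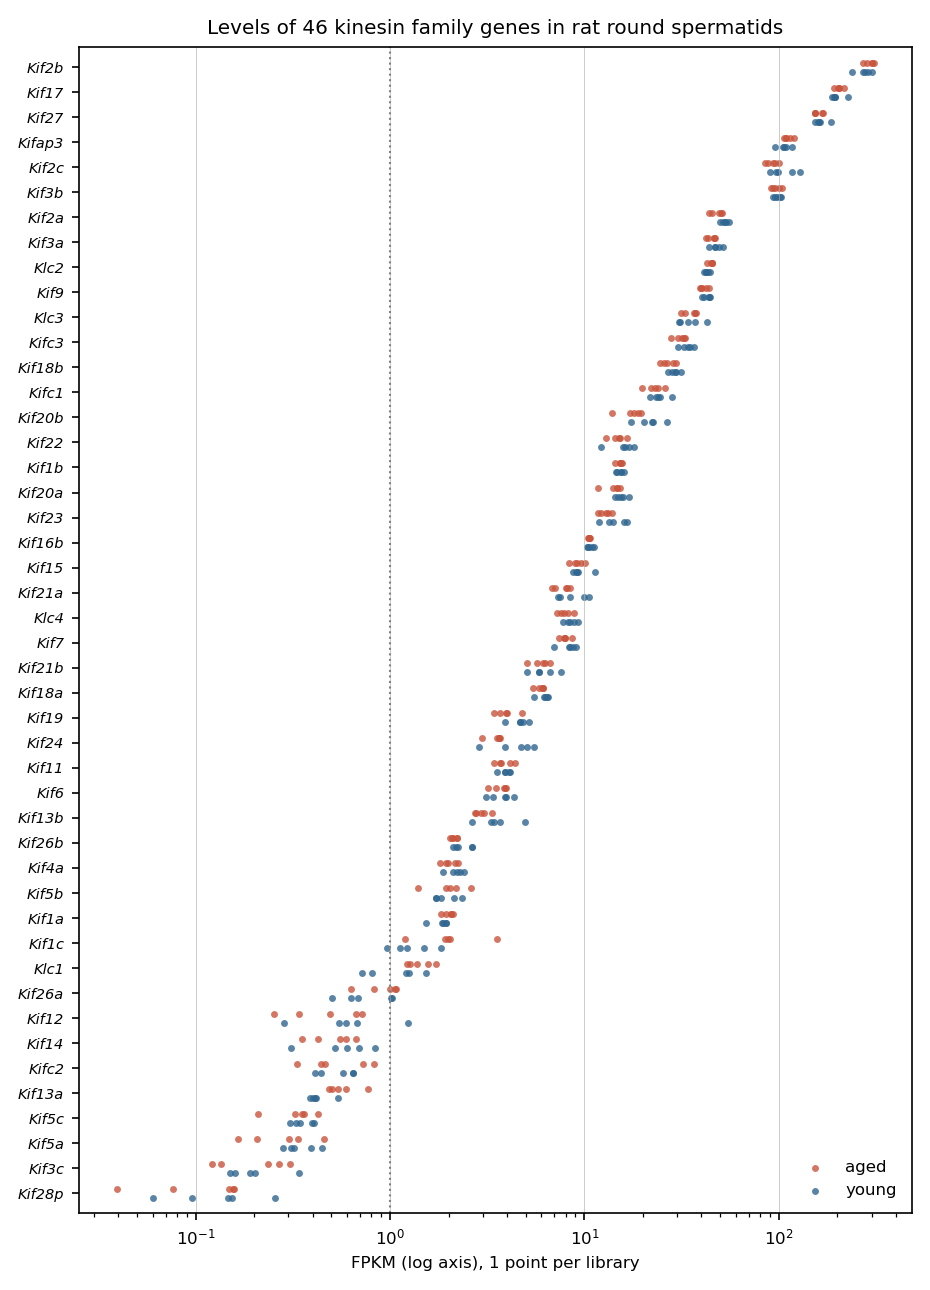
FPKM on a log axis for the 46 kinesin family genes, 1 point per library, with the 5 aged and the 5 young libraries in different colours. The points of the abundant genes sit close together and those under 1 FPKM scatter widely, and the aged and young ranges overlap in all 46 genes.

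Kif2b (ENSRNOG00000002535) had the highest level of the family. Its product is known from human cells as a motor that removes tubulin from microtubule ends during mitosis. Kif2b stood at 300.3, 284, 309, 272 and 301 FPKM in aged libraries, against 238, 278, 288, 269.7 and 303 FPKM in young libraries. The groups overlapped, and the highest and the lowest young library spanned a wider range than the aged group. It ranked 329 among protein-coding genes by mean level and lay above its relatives Kif2c (mean 99.5 FPKM) and Kif2a (50.3 FPKM) in all 10 libraries. In the files the span of Kif2b on chromosome 10 is as long as its exons, 2215 bp, which means that the annotation gives it no intron.

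The cilium and flagellum genes held the next ranks. Kif17 encodes the homodimeric kinesin-2 that in mouse spermatids carries the transcriptional coactivator ACT out of the nucleus. It measured 217, 192, 203, 204 and 202 FPKM in aged libraries and 193, 187, 194, 195 and 227 FPKM in young libraries. Young replicate 5 was the highest of the 10 libraries and the other 4 young libraries lay within or below the aged range. Kif27, a relative of the Hedgehog regulator Kif7 that is needed for motile cilia in mice, measured 168, 154, 168, 153 and 153 FPKM in aged libraries and 159, 153, 161, 164 and 186 FPKM in young libraries. Kif2b exceeded Kif17, and Kif17 exceeded Kif27, in 10 of 10 libraries, aged and young alike.

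The heterotrimeric kinesin-2, the motor that carries building material from the base to the tip of cilia, is made of Kif3a, Kif3b or Kif3c and the accessory subunit Kifap3. Kifap3 averaged 112 ± 5.14 FPKM in aged and 107 ± 7.69 FPKM in young libraries (SD, n = 5 each). Kif3b averaged 96.9 ± 4.85 FPKM in aged and 98.1 ± 4.03 FPKM in young libraries, and Kif3a averaged 44.96 ± 2.08 FPKM in aged and 47.7 ± 2.91 FPKM in young libraries. The ratio of Kif3b to Kif3a was 2.003 to 2.32 in aged libraries and 1.98 to 2.14 in young libraries, and that of Kifap3 to Kif3a was 2.28 to 2.65 in aged and 1.86 to 2.68 in young libraries. Kif3c, the alternative partner of Kif3a, had 7 to 18 fragments per library and an FPKM at most 0.0078 of that of Kif3a. Kif9, which in mice sits in the central pair of the sperm flagellum, averaged 41.1 ± 1.87 FPKM in aged and 42.6 ± 1.71 FPKM in young libraries.

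**Figure D2:**
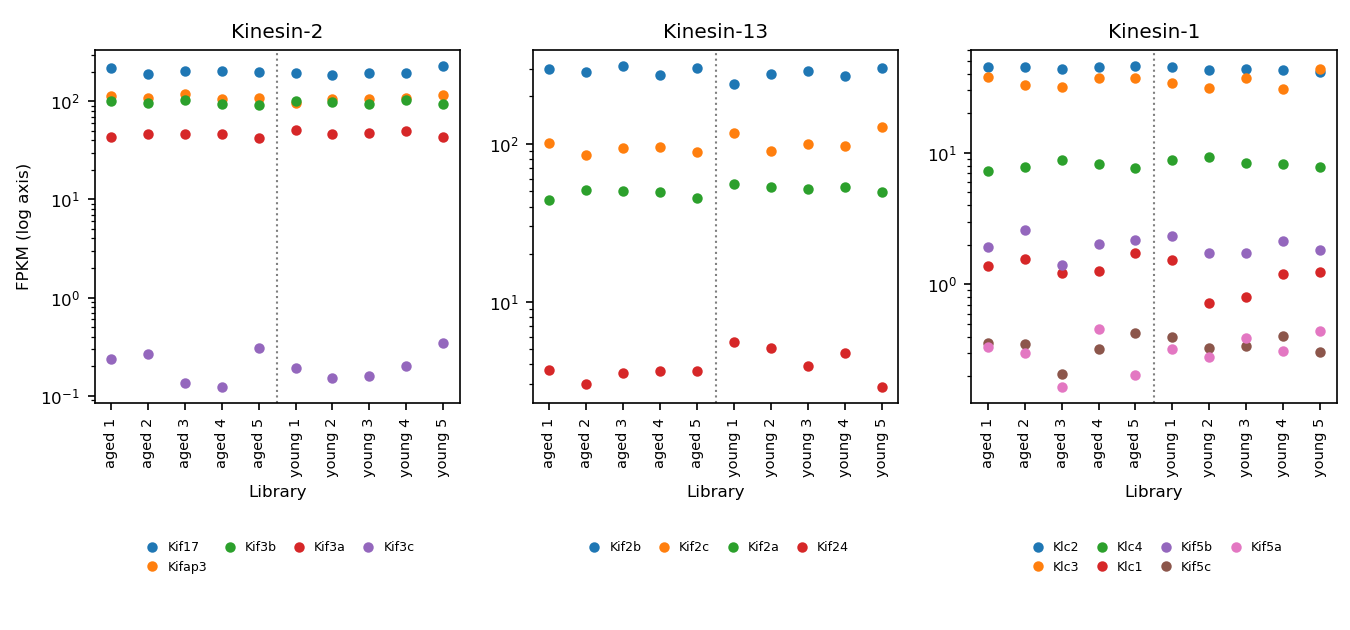
FPKM on a log axis in each of the 10 libraries (5 aged to the left of the dotted line, 5 young to the right) for the kinesin-2, kinesin-13 and kinesin-1 subfamilies, 1 colour per gene. Kif17, Kif2b and the light chains Klc2 and Klc3 run near the top of their panels in every library, while Kif3c and the heavy chains Kif5a and Kif5c stay under 1 FPKM.

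The other cilium genes were scarcer. Kif7, the Hedgehog regulator at the tip of primary cilia, averaged 7.97 ± 0.417 FPKM in aged and 8.31 ± 0.785 FPKM in young libraries. Kif19, which limits the length of motile cilia in mice, averaged 3.97 ± 0.499 FPKM in aged and 4.65 ± 0.465 FPKM in young libraries. Kif24, which restrains cilium growth at the mother centriole in human cells, measured 3.70, 2.99, 3.55, 3.65 and 3.64 FPKM in aged libraries and 5.52, 5.05, 3.92, 4.71 and 2.87 FPKM in young libraries. Aged libraries kept to a narrow range for Kif24, with replicate 2 lowest, while 4 of the 5 young libraries lay above all aged ones and young replicate 5 lay below them. Kif6 averaged 3.68 ± 0.322 FPKM in aged and 3.73 ± 0.487 FPKM in young libraries.

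Among the division motors, Kif2c, which corrects wrong attachments of spindle microtubules to centromeres, was the most abundant. It measured 101, 84.9, 93.9, 95.8 and 88.5 FPKM in aged libraries and 117, 90.2, 99.5, 96.3 and 128 FPKM in young libraries. Its log2 difference was -0.19 (SE 0.09, limma adjusted p = 0.445). Young replicates 1 and 5 were above every aged library and the other 3 young libraries lay within the aged range. Kif18b, a motor that trims astral microtubules, averaged 26.9 ± 2.17 FPKM in aged and 29.1 ± 1.56 FPKM in young libraries. Kifc1, a minus-end motor that focuses spindle poles and in rat spermatids has been located at the manchette and acrosome, averaged 22.9 ± 2.35 FPKM in aged and 24.3 ± 2.43 FPKM in young libraries. Kif23, the motor of the centralspindlin complex at the intercellular bridge of germ cells, averaged 12.8 ± 0.860 FPKM in aged and 14.4 ± 1.93 FPKM in young libraries. The cytokinesis motor Kif20a averaged 14.1 ± 1.38 FPKM in aged and 15.5 ± 0.988 FPKM in young libraries, and the chromosome-arm motor Kif22 averaged 14.8 ± 1.32 FPKM in aged and 15.9 ± 2.23 FPKM in young libraries. Kif11, the motor that pushes spindle poles apart, was less abundant, at 3.88 ± 0.382 FPKM in aged and 3.92 ± 0.232 FPKM in young libraries. Kif15, a spindle motor that works beside Kif11, averaged 9.22 ± 0.645 FPKM in aged and 9.50 ± 1.02 FPKM in young libraries. Kif18a, which dampens chromosome movement at metaphase, averaged 5.92 ± 0.287 FPKM in aged and 6.18 ± 0.382 FPKM in young libraries. The X-linked chromosome motor Kif4a averaged 2.02 ± 0.171 FPKM in aged and 2.18 ± 0.204 FPKM in young libraries, and Kif14, of cytokinesis, averaged under 1 FPKM.

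Promoter windows of 3 cilium genes and 2 division motors are printed as examples of each motif searched, and the other members whose windows hold a match are counted after them. Each window is the 250 bases before the gene's start in RefSeq, build GRCr8, read 5′ to 3′ on the plus strand of the chromosome, on which all 5 genes lie. Capitals mark the matches on either strand. They are TGACGTCA, the cAMP response element (CRE), in Kif17; GTTGCC, 1 arm of the X-box read by RFX factors, in Kif27 and Kif9; CCAAT, which reads ATTGG on the other strand, in Kif20a and Kif20b; and TTTGAA, a cell cycle homology region (CHR), in Kif20b.
Kif17, chr5:155765342-155765591: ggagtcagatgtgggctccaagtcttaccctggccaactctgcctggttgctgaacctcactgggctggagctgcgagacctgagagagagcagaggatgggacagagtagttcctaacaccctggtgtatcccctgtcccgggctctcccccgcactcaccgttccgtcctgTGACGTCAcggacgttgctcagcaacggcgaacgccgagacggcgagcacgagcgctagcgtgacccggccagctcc
Kif27, chr17:6304739-6304988: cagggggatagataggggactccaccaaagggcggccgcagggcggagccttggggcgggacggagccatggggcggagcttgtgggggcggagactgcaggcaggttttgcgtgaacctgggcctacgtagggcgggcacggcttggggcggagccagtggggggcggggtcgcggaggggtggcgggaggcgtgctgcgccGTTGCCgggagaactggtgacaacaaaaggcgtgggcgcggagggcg
Kif9, chr8:119337849-119338098: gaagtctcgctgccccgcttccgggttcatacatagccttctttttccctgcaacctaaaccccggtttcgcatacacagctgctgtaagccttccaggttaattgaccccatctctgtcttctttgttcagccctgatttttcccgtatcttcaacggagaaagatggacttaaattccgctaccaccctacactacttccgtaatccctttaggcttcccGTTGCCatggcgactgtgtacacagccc
Kif20a, chr18:26504172-26504421: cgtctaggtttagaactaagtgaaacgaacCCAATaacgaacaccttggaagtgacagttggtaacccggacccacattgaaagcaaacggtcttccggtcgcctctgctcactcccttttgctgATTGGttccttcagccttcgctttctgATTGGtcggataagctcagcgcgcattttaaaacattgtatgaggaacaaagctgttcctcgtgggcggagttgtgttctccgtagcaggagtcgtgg
Kif20b, chr1:241840766-241841015: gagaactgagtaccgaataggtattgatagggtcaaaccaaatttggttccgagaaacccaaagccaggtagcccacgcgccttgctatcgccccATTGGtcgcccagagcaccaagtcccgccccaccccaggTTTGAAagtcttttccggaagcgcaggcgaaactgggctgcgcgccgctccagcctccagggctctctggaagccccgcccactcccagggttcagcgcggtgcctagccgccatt

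Of the 46 members, 36 had a promoter window in the RefSeq table, against 27457 genes in all. No window was listed for Kif2b, Kifc3, Kif7, Kif21b, Kif19, Kif13b, Kif26a, Kif14, Kifc2 or Kif5a. The CRE letters stood in 4 of the 36 windows (Kif17, Kif15, Klc1 and Kif5c), or 11.1%, against 1.78% of all windows. CCAAT stood in 14 members' windows (38.9%) and in 36.1% of all windows, and Kif20a held it 3 times. By role it stood in 7 of 11 division, 3 of 8 cilium and 3 of 13 cargo windows. TTTGAA stood in 7 members' windows (19.4%) and in 17.2% of all windows, 5 of the 7 being the division motors Kifc1, Kif20b, Kif22, Kif23 and Kif15. That is 5 of 11 division windows, against 0 of 8 cilium and 0 of 13 cargo windows. No difference between roles was tested. GTTGCC stood in 7 members' windows (19.4%) and in 10.8% of all windows. The 7 were the cilium genes Kif27, Kif3a and Kif9, the division motors Kif23 and Kif18a, and the cargo motors Kif13a and Kif3c. Both strands were searched, no printed matches overlapped one another, and a match is a description of the letters, not a binding site.

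Conventional kinesin-1 is a tetramer of a pair of heavy chains (Kif5a, Kif5b or Kif5c) and a pair of light chains (Klc1 to Klc4) that choose the cargo. The light chain genes summed to 84.5 to 91.7 FPKM in aged libraries and 82.4 to 93.4 FPKM in young libraries. By contrast, the heavy chain genes summed to 1.78 to 3.25 FPKM in aged libraries and 2.33 to 3.06 FPKM in young libraries. The light chain sum was 27.0 to 47.6 times the heavy chain sum in aged libraries and 28.9 to 36.4 times in young libraries. Klc2 measured 44.9, 45.2, 43.0, 45.1 and 45.3 FPKM in aged libraries and 44.5, 42.2, 43.4, 42.3 and 41.4 FPKM in young libraries, one of the narrowest spreads in the family. Klc3, a light chain known in rat spermatids to bind outer dense fibres and mitochondria of the tail, measured 37.5, 33.0, 31.5, 37.1 and 36.8 FPKM in aged libraries and 34.1, 30.9, 36.9, 30.7 and 43.0 FPKM in young libraries. Klc2 and Klc3 supplied most of the light chain sum. Klc4 averaged 7.95 ± 0.623 FPKM in aged and 8.50 ± 0.578 FPKM in young libraries, and Klc1, the light chain best known from neurons, averaged 1.43 ± 0.207 FPKM in aged and 1.10 ± 0.339 FPKM in young libraries (log2 difference 0.22, limma adjusted p = 0.477). Kif5b, the heavy chain found in most tissues, averaged 2.03 ± 0.432 FPKM in aged and 1.95 ± 0.278 FPKM in young libraries and made up most of the heavy chain sum.

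The remaining transport motors were of low to middling level. Kifc3, a minus-end motor of epithelial junctions and Golgi traffic, averaged 31.1 ± 2.06 FPKM in aged and 33.7 ± 2.38 FPKM in young libraries. Kif1b, a carrier of mitochondria and synaptic vesicle precursors, averaged 15.2 ± 0.437 FPKM in aged and 15.2 ± 0.554 FPKM in young libraries. Kif16b, which moves early endosomes, averaged 10.6 ± 0.112 FPKM in aged and 10.7 ± 0.343 FPKM in young libraries. Kif1b and Kif16b had the smallest spread between libraries, 3.09% and 2.32% of the mean over all 10. Motors best known from neurons, Kif5a, Kif5c, Kif3c and Kif13a, each averaged under 1 FPKM, as did Kif26a, Kif12, Kif14, Kifc2 and Kif28p, and these 9 had between 2 and 113 fragments per library. Kif21a and Kif21b, which pause microtubule growth, averaged 7.71 ± 0.721 and 5.96 ± 0.612 FPKM in aged libraries, against 8.75 ± 1.43 and 6.18 ± 0.959 FPKM in young libraries. Kif13b averaged 2.96 ± 0.244 FPKM in aged and 3.60 ± 0.858 FPKM in young libraries, and the neuronal vesicle motor Kif1a measured 1.84 to 2.11 FPKM in aged and 1.53 to 1.95 FPKM in young libraries. Kif26b, a developmental kinesin without a known place in these roles, averaged 2.13 ± 0.0787 FPKM in aged and 2.36 ± 0.257 FPKM in young libraries.

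Whether age changed these levels was tested with limma on log2(FPKM + 1) over the 12985 genes that averaged 1 FPKM or more. Of the 46 members 37 passed that filter, and fold changes on this scale understate those of low genes. No member passed a Benjamini-Hochberg adjusted p of 0.05, and neither did any other gene (0% of the 12985, smallest adjusted p = 0.280). Fitting the recovered fragments with limma's voom also called 0 genes, with 1536 at an unadjusted p under 0.05. At an unadjusted p under 0.05, limma counted 3 of the 37 members and 11.9% of all tested genes (1544). With aged lower it counted 2 members (Kif20b and Kif2a), against 6.35% of all tested genes, and with aged higher it counted 1 (Kif1c), against 5.54%. In none of the 37 members were the aged and young ranges apart, a state found in 2.6% of all tested genes (1.36% with aged higher and 1.24% with aged lower).

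The fitted difference was below 0 (aged lower) in 28 of the 37 tested members and in 54.5% of all tested genes. Its median was -0.05 over the members and -0.02 over all tested genes. Kinesin genes are long, with a median of 3781.5 bp of exon sequence over all 46 members, tested or not, against 1886 bp over the tested genes. Differences below 0 were more common among the longest genes of the whole table. Among tested genes of 3099 to 24116 bp, 65.0% had a difference below 0 with a median of -0.04, and 20 of the 25 members in that class did so with a median of -0.05. In the next class, of 1886 to 3099 bp, 57.1% of all genes and 8 of 11 members were below 0, with a member median of -0.08. With voom, 23 of the 37 members and 48.1% of all tested genes were below 0, and the member median was -0.03. With FPKM rescaled to an equal total per library (TPM), 26 of the 37 members and 51.0% of all tested genes were below 0. The member median was then -0.04. These shares moved with the scaling. The part of length in the members' shift was not tested. For all 26 tested members averaging 5 FPKM or more, the 95% interval lay within 1.5-fold of FPKM + 1 in either direction. Over the 37 members it did so for 36, Kif1c being the exception. For members under 5 FPKM that fold understates the fold of FPKM itself.

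The count of members at an unadjusted p under 0.05 turned on single libraries. Without young replicate 5 it was 9 of 37, against 16.8% of all tested genes, and 8 of these were lower in aged libraries, against 9.9%. The 8 were Kif2a, Kif3a, Kif20b, Kif22, Kif23, Kif19, Kif24 and Kif13b, and 25 of the 37 members were then below 0, against 53.1% of all tested genes. Kif24 had the smallest adjusted p of the 9 in that fit, 0.179 with limma, at a log2 difference of -0.36. Without aged replicate 1 the count was 0, against 9.97% of all tested genes in either direction and 5.47% with aged lower, and 28 of the 37 members and 52.3% of all tested genes were below 0. Without aged replicates 1 and 2 the count was also 0, against 7.49% of all tested genes in either direction and 3.8% with aged lower. In that last fit 26 of the 37 members and 50.6% of all tested genes were below 0. With voom the count was 2 of 37, against 11.8%, of which 1 was lower in aged libraries, against 4.41%.

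**Figure D3:**
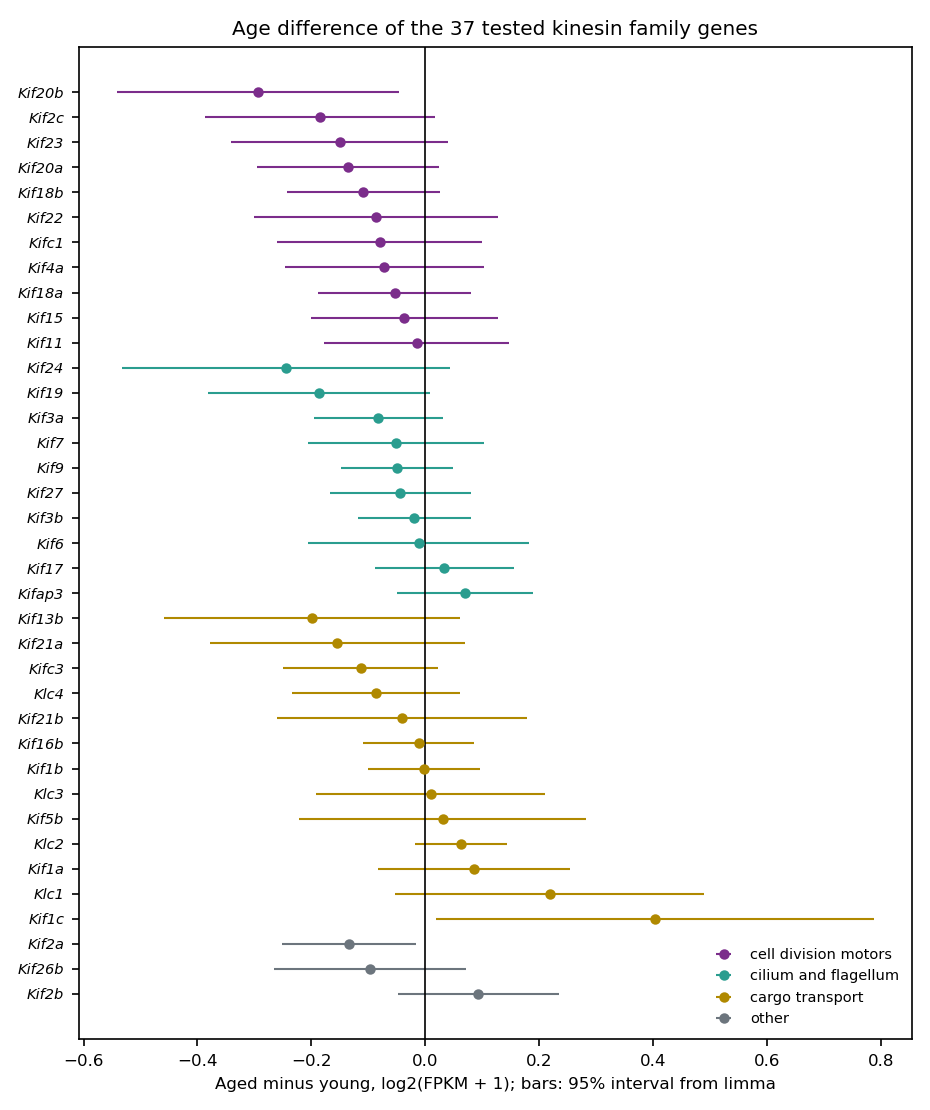
Aged minus young difference on the log2(FPKM + 1) scale for the 37 tested kinesin genes, with bars for limma's 95% interval. Most points lie just left of 0, 28 of 37, and the bars of Kif20b, Kif2a and Kif1c alone leave out 0 before adjustment.

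Kif20b (ENSRNOG00000018929, chromosome 1), a motor needed for the last steps of cytokinesis, had the lowest difference of the family. It measured 13.9, 18.1, 19.6, 18.9 and 17.2 FPKM in aged libraries, against 26.5, 20.3, 22.4, 22.5 and 17.3 FPKM in young libraries. Of the young libraries 4 lay above every aged one, but young replicate 5 lay within the aged range. The log2 difference was -0.29 (SE 0.11), 0.816 as a fold, with a 95% interval of -0.54 to -0.05 and a limma adjusted p of 0.379. Without young replicate 5 the difference was -0.37 with a limma adjusted p of 0.184, and without aged replicate 1 it was -0.22 with an adjusted p of 0.518. Over all alternatives the adjusted p of Kif20b ran from 0.184 to 0.694.

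Kif2a (ENSRNOG00000014000, chromosome 2) is a depolymerizing motor of spindles and of growing neurons. It measured 43.7, 51.0, 50.6, 49.2 and 45.1 FPKM in aged libraries, against 55.5, 53.6, 51.5, 52.9 and 49.7 FPKM in young libraries. Young replicate 5 alone of the young libraries lay within the aged range. The log2 difference was -0.13 (SE 0.05, 95% interval -0.25 to -0.02, limma adjusted p = 0.387). The ratio of Kif2b to Kif2a was 5.52 to 6.87 in aged libraries and 4.29 to 6.11 in young libraries.

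Kif1c (ENSRNOG00000031364, chromosome 10), a motor that carries dense vesicles and messenger RNA to the cell edge, was low and uneven. It measured 2.03, 3.54, 1.20, 1.98 and 1.93 FPKM in aged libraries, against 1.49, 0.960, 1.12, 1.23 and 1.82 FPKM in young libraries. Aged replicate 2 was the highest library and aged replicate 3 lay inside the young range. The log2 difference was 0.40 (SE 0.18, 95% interval 0.02 to 0.79, limma adjusted p = 0.412), and without aged replicate 2 it was 0.26 with an adjusted p of 0.548. It was 0.65 with voom and 0.60 with a pseudocount of 0.1, and over all alternatives the adjusted p ran from 0.247 to 0.735. Aged replicate 2 also held the largest sums of the peritubular, Leydig, Sertoli, macrophage and endothelial markers. In that library the macrophage markers came to 107 FPKM, against 15.7 to 43.3 FPKM in the other aged libraries and 11.9 to 25.04 FPKM in young libraries. Its Sertoli markers came to 121 FPKM, against 29.2 to 43.1 FPKM in the other aged libraries and 22.9 to 29.9 FPKM in young libraries. Of the tested somatic markers, 9 of 10 peritubular, 3 of 3 Leydig, 3 of 3 Sertoli, 8 of 9 macrophage and 1 of 2 endothelial genes had a fitted difference above 0. Over all tested genes 54.5% were below 0. Markers were tested if they averaged 1 FPKM or more over all 10 libraries. Cnn1, Cyp17a1, C1qa, C1qb, C1qc, Cd163, Csf1r, Tyrobp and Vwf had young means under 1 FPKM and passed through their aged values. For these the filter itself favoured a difference above 0. Of the untested Sertoli markers, Rhox5 and Inhbb averaged lower in aged libraries, and Sox9, Gata4 and Amh higher. At an unadjusted p under 0.05 the peritubular genes Acta2, Myh11, Tagln, Cnn1, Des, Myl9 and Tpm2, the Leydig genes Insl3 and Cyp17a1, the Sertoli gene Vim, the macrophage genes C1qa, C1qb, C1qc, Cd163 and Tyrobp and the endothelial gene Vwf were higher in aged libraries, and the macrophage gene Adgre1 was lower. Over all tested genes 5.54% were higher and 6.35% lower in aged libraries at that p. None of these somatic markers was at 0 in every library. The part of somatic cells in the level of Kif1c was not tested.

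Grouped by role, the listed division motors shared a direction. The list was drawn up with earlier results known. It left out Kif2b (log2 difference 0.09, and 0.12 with voom) and Kif2a (-0.13), described above as motors of mitosis and of spindles. All 11 tested division motors of the list had a fitted difference below 0, with a median of -0.09 and a range from -0.29 (Kif20b) to -0.02 (Kif11). Of these 1 reached an unadjusted p under 0.05, where all tested genes had 54.5% below 0 and 6.35% lower at that p. All 11 fell in the length classes of 1886 to 3099 bp and 3099 to 24116 bp. In those classes 57.1% and 65.0% of all tested genes were below 0. Of the cilium and flagellum genes 8 of 10 were below 0, with a median of -0.05, and of the cargo motors and light chains 7 of 13 were below 0, with a median of -0.0023. When aged replicates 1 and 2 were left out, 9 of the 11 division motors were below 0 with a median of -0.06, against 50.6% of all tested genes. With voom 10 of the 11 were below 0 with a median of -0.09, against 48.1% of all tested genes. The cilium genes then had 6 of 10 below 0 with a median of -0.02, and the cargo group turned to 5 of 13 below 0 with a median of 0.02. The cargo group was also above 0 in the median with TPM, at 0.01 with 5 of 13 below 0, and by at most 0.02 without young replicate 1, 4 or 5. No difference between the role groups was tested.

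Other genes of the same machinery were described by lists. Of 19 partners of the division motors that were found by name, 18 were below 0 in aged libraries, with a median of -0.15, and 6 did so at an unadjusted p under 0.05 while none passed the adjusted p. All tested genes had 54.5% below 0 and 6.35% lower at that p. The 6 became 11 without young replicate 5, 1 without aged replicate 1 (16 of 19 below 0), 2 without young replicate 1, and 3 without any 1 of aged replicates 2 and 5 and young replicates 2, 3 and 4. The number was also 2 with TPM, 4 with voom, 3 with a replicate block, and 1 without aged replicates 1 and 2 (15 of 19 below 0). Ect2, the exchange factor that Kif23's complex brings to the midzone to start cytokinesis, measured 7.19 to 9.18 FPKM in aged libraries and 9.25 to 10.9 FPKM in young libraries, with no overlap (log2 difference -0.28, SE 0.07, limma adjusted p = 0.319). Top2a, the topoisomerase of chromosome condensation, averaged 14.6 ± 2.04 FPKM in aged and 17.6 ± 2.11 FPKM in young libraries. Nuf2, a subunit of the kinetochore's microtubule-binding complex, averaged 18.1 ± 2.28 FPKM in aged and 21.2 ± 1.78 FPKM in young libraries. The other 3 at that level were Bub1, Mki67 and Anln. Racgap1 was the only partner above 0, at 6.54 ± 0.127 FPKM in aged and 6.23 ± 0.345 FPKM in young libraries (log2 difference 0.06). Tpx2, the spindle assembly factor that binds Kif11 and Kif15, averaged 18.0 ± 2.66 FPKM in aged and 21.2 ± 2.89 FPKM in young libraries, and Prc1, the bundler of midzone microtubules, averaged 61.1 ± 5.90 FPKM in aged and 68.1 ± 10.1 FPKM in young libraries. Cenpe, a kinesin-7 named for its place at centromeres, averaged 5.44 FPKM in aged and 6.23 FPKM in young libraries (log2 difference -0.16).

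Markers of meiotic spermatocytes, the dividing cells that precede round spermatids, were measured beside the division motors. Of 12 such markers 10 were below 0 in aged libraries, with a median of -0.17, and Sycp2 and Sycp3, which build the axis of paired chromosomes, were below 0 at an unadjusted p under 0.05. Sycp1, of the same structure, averaged 9.61 ± 1.88 FPKM in aged and 11.5 ± 1.33 FPKM in young libraries. All tested genes had 54.5% below 0, and 6.35% lower at that p. The 2 became 5 without aged replicate 4, 4 without aged replicate 5 or young replicate 5, and 1 without young replicate 1. Without aged replicates 1 and 2 the list had 8 of 12 below 0 with a median of -0.09, and 0 at that p. The division motors deviated from their mean over the 10 libraries by -0.16, -0.05, 0.0064, 0.02 and -0.09 (log2) in aged replicates 1 to 5, and by 0.16, 0.02, 0.05, 0.12 and -0.07 in young replicates 1 to 5. Meiotic markers deviated by -0.25, -0.15, -0.18, 0.17 and 0.05 in the same aged libraries and by 0.27, 0.04, 0.07, 0.09 and -0.11 in the same young libraries. For both lists aged replicate 1 was the lowest library and young replicate 1 the highest, and young replicate 5 lay below 0. Of the 12 round spermatid markers, 8 were above 0 in aged libraries and 4 below, with a median of 0.05. The 4 below were Prm1, Prm2, Tnp1 and Tnp2, the most abundant of that list, which dominate its sum. Acr alone of that list was at an unadjusted p under 0.05, with aged higher, against 5.54% of all tested genes. The part of spermatocytes in the level of the division motors was not tested.

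**Figure D4:**
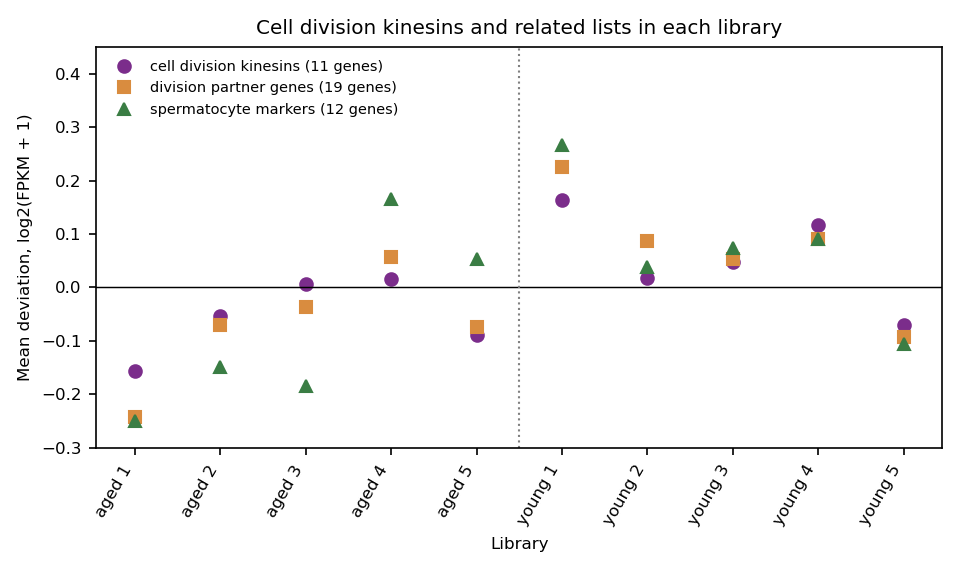
Mean deviation from the 10-library mean on the log2(FPKM + 1) scale, in 5 aged and then 5 young libraries, for the division kinesins, their partners and the meiotic markers. The 3 lists are lowest in aged replicate 1 and highest in young replicate 1, and young replicate 5 lies below 0 in each.

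Dynein genes and the adaptors of kinesins were counted in the same way. Over all tested genes 54.5% were below 0, with a median of -0.02. At an unadjusted p under 0.05, limma had 6.35% of all tested genes lower in aged libraries and 5.54% higher. Of 27 tested genes of cytoplasmic dynein, the minus-end motor, its activator dynactin and their adaptors, 17 were below 0 and 10 above, with a median of -0.03. At an unadjusted p under 0.05, 3 of them were lower in aged libraries: the heavy chain Dync1h1 (21.8 ± 2.25 FPKM in aged and 26.7 ± 3.75 FPKM in young libraries), Dync1li1 and the adaptor Hook1. Dync1i1, the neuronal intermediate chain, averaged under 1 FPKM. Of 22 tested kinesin adaptors and regulators 15 were below 0 and 7 above, with a median of -0.02. In that list Spag9 and Arl8b were lower in aged libraries, and Map7d1 and Map7d3, microtubule proteins that recruit kinesin-1, were higher, each at an unadjusted p under 0.05. Trak1, a link between kinesin-1 and mitochondria, averaged under 1 FPKM, and its relative Trak2 differed by 0.03 (log2). None of these genes passed the adjusted p.

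Some members overlap neighbours in the annotation, and the labels do not say whether counting used strand. The overlap is of whole gene spans, introns included, and exons were not compared. In all 14 members overlapped another gene, 6 of them on the same strand. Kif15 (9.22 FPKM in aged and 9.50 FPKM in young libraries) overlaps a gene on the opposite strand with a mean of 93.7 FPKM, and Kif5a overlaps Dctn2, at 259 FPKM, on the opposite strand. Kif28p, the lowest member, lies within Ahctf1 (54.2 FPKM) on the same strand and is described in the files as a pseudogene although its class is protein coding. RefSeq also lists another gene, Kif27l1, that overlaps the start of Kif27 in build GRCr8. Levels of such genes are uncertain wherever reads of the neighbour could have been counted in them.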

How the data were processed

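Messenger RNA of round spermatids was sequenced in 5 aged and 5 young libraries with a SMARTer kit from 1.3 ug of total RNA, per the labels' protocols. HISAT2 2.0.5 and featureCounts 1.5.0-p3 are named in the submitters' processing notes. The genome build, the strand setting and the options were not given in the sources used here. The authors deposited FPKM per gene, 1 file per library, with gene lengths and positions per the file headers. Multiplying FPKM by gene length and by 1 factor per library, found from the data (14.6 to 18.6 fragments per FPKM and kb), gave whole fragments for all values at a tolerance of 0.001, whose sum was taken as depth. FPKM are not counts, so limma 3.58.1 in R 4.3.3 (trended empirical Bayes, two-sided, Benjamini-Hochberg) was run on log2(FPKM + 1) over all genes averaging 1 FPKM or more, and 95% intervals come from that fit. Tables were handled in Python 3.11.15 with pandas 2.3.3 and scipy 1.17.1, and the fit was tested on simulated data. The members, roles, gene lists and tests were chosen with earlier results of these data known. Genes named were the members averaging 5 FPKM or more and those at an unadjusted p under 0.05, and in the lists of related genes and meiotic markers those at that p with the first 2 of each list. Lower members, and examples beyond that, were named after their values were seen. The rule was not carried through for the other marker lists. Somatic and round spermatid markers at that p were named, but spermatogonial markers were given as sums only. The 19 alternatives were another pseudocount (0.1), no filter or a filter at 5 FPKM, median-of-ratios scaling, TPM, voom, protein-coding genes only, a replicate block, each library left out, and aged replicates 1 and 2 left out together. Median-of-ratios scaling left the deposited values almost unchanged (member median -0.0517, as in the main fit). It was therefore no separate check of the scaling. The labels do not say whether replicate numbers pair the samples, and the main fit did not pair them. Promoter windows came from a RefSeq table of build GRCr8, and no coordinates of the files were converted to it.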

Additional observations from a re-analysis of the deposited data

Results flagged for a closer look

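In 6 of the 74 groups of 5 libraries examined (37 tested members in each age group), 1 library stood far from the other 4, its gap to the nearest exceeding 0.71 of the group's range, a level that chance passes in about 1 of 20 groups. Kif17 was highest in young replicate 5, at 227 FPKM against 187 to 195 FPKM in the other young libraries. Klc2 was lowest in aged replicate 3, at 43.0 FPKM against 44.9 to 45.3 FPKM in the other aged libraries. For Kif1b aged replicate 1 was lowest, at 14.4 FPKM against 15.3 to 15.6 FPKM. Kif15 was highest in young replicate 4, at 11.3 FPKM against 8.79 to 9.23 FPKM in the other young libraries. For Kif24 aged replicate 2 was lowest, at 2.99 FPKM against 3.55 to 3.70 FPKM. Kif1a was lowest in young replicate 2, at 1.53 FPKM against 1.85 to 1.95 FPKM.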

How the results depend on the processing

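None of the 27 members at 5 FPKM or more or at an unadjusted p under 0.05 passed an adjusted p of 0.05 in limma under any of the 19 alternatives (512 member values, smallest adjusted p = 0.184), and 19 of the 27 kept one direction throughout. The members' median difference ran from -0.09 to -0.03 when 1 library was left out. Without 1 library, 0 to 1 genes in all passed the adjusted p, and the members at an unadjusted p under 0.05 numbered 0 to 9, with 0 to 8 lower and 0 to 2 higher in aged libraries; the 0 came without aged replicate 1 and the 9 without young replicate 5. Members lower at that p numbered 1 with TPM and 1 with voom. Members higher at that p numbered 0 with a filter at 5 FPKM and 0 with the replicate block, where 3 were lower. Without aged replicates 1 and 2 no member was counted (0 lower, 0 higher). Same-numbered libraries did not deviate together (0 of 5 correlations over 0.1). Differences near 0 changed sign: with TPM Kif1b was 0.011 and Kif16b 0.00080; with voom Kif3b was 0.0042, Kif1b 0.020 and Kif16b 0.011; without aged replicates 1 and 2 Kifc1 was 0.0058 and Kif1b 0.016. With 1 library left out, ranges crossing 0 were Klc3 -0.035 to 0.084, Kif1b -0.016 to 0.015, Kif21b -0.10 to 0.026, Kif3b -0.043 to 0.0019, Kif16b -0.024 to 0.0023, Kif15 -0.066 to 0.022 and Kif27 -0.069 to 0.0011. The cause of these changes was not tested. Members under 1 FPKM had at most 113 fragments per library, which limits what can be said of them.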
